A study of Mus musculus with 8 samples.

Results

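The azurophil granule genes of the neutrophil were followed in whole mouse spines. Mpo, Elane, Prtn3 and Ctsg encode granule enzymes, and Serpinb1a encodes an inhibitor of the serine proteases among them. The 5 genes were chosen by gene symbol, and the array carried all of them on 7 probes of 25695 with values. Mpo had 3 probes and each of the other genes had 1. Proteoglycan-induced spondylitis (PGISp) is a mouse model of ankylosing spondylitis in which injected cartilage proteoglycan is followed by arthritis of the limbs and spine. All 8 mice were BALB/c with an IL4 knockout. The 4 PGISp mice received 3 injections of human cartilage extract with the adjuvant dimethyl dioctadecyl ammoniumbromide, starting at 3 months of age, were taken at week 12 after the first injection and were selected for severe peripheral arthritis, the activity of disease in the spine itself not having been scored, and the 4 control mice had no injection, their age not being given in the sources used here. Total RNA from each whole spine was hybridised to 1 array of a single BeadChip, PGISp spines on positions A, C, E and G and control spines on positions B, D, F and H. Markers of bone (Bglap, Col1a1), cartilage (Col2a1), muscle (Acta1, Ckm), red cell precursors (Alas2) and neutrophils (Ltf, Camp) were above background on 8 of 8 arrays.

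Azurophil granules are the first granules that a neutrophil makes, at the promyelocyte stage in the bone marrow, and transcription of their contents stops as the cell matures. Myeloperoxidase turns hydrogen peroxide and chloride into hypochlorous acid, and the 3 serine proteases, neutrophil elastase, proteinase 3 and cathepsin G, cleave bacterial proteins and extracellular matrix. Their messenger RNA is therefore carried chiefly by marrow precursors and not by neutrophils in blood or tissue, and a whole spine includes the marrow of its vertebrae.

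The 4 enzyme genes have short upstream regions that can be read side by side. These are shown because the genes share a promyelocyte expression window and were each higher in the PGISp spines. Each sequence is the 250 bases before the annotated start in RefSeq, build GRCm38.p6, written in the direction of transcription; capitals mark the letters of 5 motifs searched on both strands. The windows were chr11:87793534-87793783 (plus strand) for Mpo, chr10:79886062-79886311 (plus strand) for Elane, chr10:79879417-79879666 (plus strand) for Prtn3 and chr14:56102575-56102824 (minus strand) for Ctsg.
Mpo: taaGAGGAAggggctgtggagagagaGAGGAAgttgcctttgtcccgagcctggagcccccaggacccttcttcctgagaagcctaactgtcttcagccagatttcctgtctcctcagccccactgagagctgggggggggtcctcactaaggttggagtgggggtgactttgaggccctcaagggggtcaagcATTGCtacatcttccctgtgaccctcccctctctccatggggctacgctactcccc
Elane: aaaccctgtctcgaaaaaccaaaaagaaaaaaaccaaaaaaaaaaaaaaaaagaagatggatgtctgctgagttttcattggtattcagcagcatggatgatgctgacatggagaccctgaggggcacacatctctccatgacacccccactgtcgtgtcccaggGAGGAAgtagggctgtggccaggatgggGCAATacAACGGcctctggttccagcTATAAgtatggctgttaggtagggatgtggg
Prtn3: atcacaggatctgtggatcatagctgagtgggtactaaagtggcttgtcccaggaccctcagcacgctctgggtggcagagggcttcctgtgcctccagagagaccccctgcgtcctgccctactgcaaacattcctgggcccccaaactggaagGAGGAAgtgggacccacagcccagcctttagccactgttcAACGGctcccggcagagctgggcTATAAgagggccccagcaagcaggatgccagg
Ctsg: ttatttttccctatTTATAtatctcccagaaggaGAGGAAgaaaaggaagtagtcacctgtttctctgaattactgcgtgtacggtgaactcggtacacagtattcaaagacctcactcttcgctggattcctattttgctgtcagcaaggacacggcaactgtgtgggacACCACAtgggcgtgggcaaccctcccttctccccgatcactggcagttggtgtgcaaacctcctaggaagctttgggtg
The motifs, chosen after the sequences had been seen, were GAGGAA (a core bound by PU.1), GCAAT (a C/EBP half-site), AACGG (MYB), TGTGGT (RUNX) and TATAA (TATA box). GAGGAA was present in 4 of 4 windows, against 23.3% of the 32851 windows of the same length in the RefSeq table. In Elane it lay at -85 to -80 from the start, followed by GCAAT at -57 to -53, AACGG at -50 to -46 and TATAA at -31 to -27. Prtn3, which lies 3138 bases upstream of Elane on the same strand, had a like order, with GAGGAA at -95 to -90, AACGG at -55 to -51 and TATAA at -32 to -28. GAGGAA and AACGG stood together in 2 of the 4 windows, those of the neighbours Elane and Prtn3, and in 3.33% of all windows. With motifs chosen after the sequences had been seen, these shares do not test whether the motifs are enriched. Mpo had GAGGAA at -247 to -242 and again at -224 to -219, with GCAAT on the opposite strand at -56 to -52. Ctsg had GAGGAA at -216 to -211, TGTGGT on the opposite strand at -79 to -74 and TATAA on the opposite strand at -236 to -232. Among all windows GCAAT occurred in 23.1%, AACGG in 14.5%, TGTGGT in 14.0% and TATAA in 22.8%. A match is a stretch of letters and not a measured binding site.

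**Figure D1:**
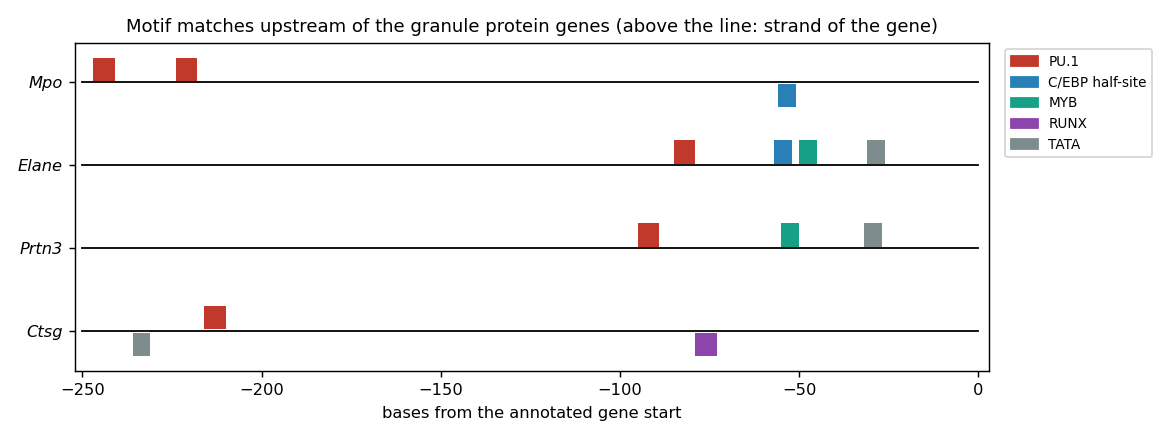
Position of the 5 motif strings in the 250 bases upstream of Mpo, Elane, Prtn3 and Ctsg (x axis, distance from the annotated start in bases). GAGGAA is present in all 4 windows, and in Elane and Prtn3 it precedes AACGG and TATAA in the same order.

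Each of the 5 genes rose in the PGISp spines, by 1.52-fold to 2.27-fold, and on each of the 7 probes the lowest PGISp value lay above the highest control value. Of the 9609 genes tested, 6.25% were called higher at this threshold (601 genes, limma with a Benjamini-Hochberg adjusted p under 0.1 over all of them) and 438 genes were called lower, together 10.8% of those tested. Groups without overlap in the same direction were found for 7.77% of the genes tested, and 1.26% were called higher with a change over 1.5-fold, a set that includes all 5. The median difference over the 5 genes was 0.92 on the log2 scale, beside -0.005 over all genes tested. Values are log2 intensities as normalised by the authors, listed for PGISp spines A, C, E and G and control spines B, D, F and H, and in RNA from whole tissue more cells of a type and more RNA per cell cannot be told apart.

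Mpo, the haem peroxidase of the granule, read 13.22, 13.64, 13.46 and 13.21 in the PGISp spines, against 12.65, 12.60, 12.37 and 12.37 in the control spines, on its brightest probe (gene at chr11:87793784-87804412, GRCm38.p6). All PGISp spines were above all control spines, with 0.56 between the lowest PGISp and the highest control value. The means were 13.38 ± 0.21 in PGISp and 12.49 ± 0.15 in control spines (SD, n = 4 each), a difference of 0.89 (SE 0.11) or 1.85-fold (limma adjusted p = 0.00281). The other probes, fitted among all probes, gave the same direction at lower signal. The dimmest read 9.57, 9.78, 10.33 and 9.74 in PGISp spines, against 8.83, 8.82, 8.73 and 8.90 in control spines, a difference of 1.03 (SE 0.14, limma adjusted p = 0.00444). The remaining probe read 10.59, 11.22, 11.35 and 10.83 in PGISp spines, against 10.33, 10.23, 9.93 and 9.92 in control spines, a difference of 0.89 (SE 0.17, limma adjusted p = 0.0159). The 3 estimates of the Mpo change thus lay between 1.85-fold and 2.05-fold although the probes differ widely in signal. In that fit over single probes 7 of the 7 probes were called higher, where 5.84% of all probes tested were.

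Among the serine proteases, Prtn3 had the largest change. The gene lies at chr10:79879667-79883174 (GRCm38.p6). Its values were 12.09, 12.004, 12.53 and 12.07 in PGISp spines, against 11.07, 11.14, 10.83 and 10.92 in control spines. The groups were separated by 0.87, the widest gap among the 7 probes, and PGISp spine E stood above the other 3 PGISp spines. The means were 12.17 ± 0.24 in PGISp and 10.99 ± 0.14 in control spines (SD, n = 4 each), a difference of 1.18 (SE 0.12) or 2.27-fold (limma adjusted p = 0.00152), which ranked 10 among the 9609 genes in order of increase.

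Ctsg encodes cathepsin G, a chymotrypsin-like protease whose gene lies in the mast cell protease and granzyme cluster (chr14:56099885-56102574, GRCm38.p6). It read 11.66, 11.75, 11.91 and 11.42 in PGISp spines, against 10.74, 10.73, 10.38 and 10.75 in control spines. The groups did not overlap; 3 control spines lay within 0.02 of each other and control spine F lay below them. The means were 11.68 ± 0.21 in PGISp and 10.65 ± 0.18 in control spines (SD, n = 4 each), a difference of 1.03 (SE 0.12) or 2.05-fold (limma adjusted p = 0.00198).

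Elane, the gene of neutrophil elastase, whose human counterpart is mutated in cyclic and severe congenital neutropenia, lies at chr10:79886312-79888216 (GRCm38.p6). It read 11.99, 12.42, 12.58 and 11.96 in PGISp spines, against 11.51, 11.46, 11.11 and 11.17 in control spines. Spines C and E were the high PGISp spines, B and D the high control spines, and the groups did not overlap. The means were 12.24 ± 0.31 in PGISp and 11.31 ± 0.20 in control spines (SD, n = 4 each), a difference of 0.92 (SE 0.15) or 1.90-fold (limma adjusted p = 0.00919).

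Serpinb1a, the mouse counterpart of human SERPINB1, is a cytosolic serpin that inhibits elastase, proteinase 3 and cathepsin G and is held outside the granules. The gene lies at chr13:32842092-32853206 (GRCm38.p6). It read 8.32, 8.10, 8.89 and 8.32 in PGISp spines, against 7.80, 7.71, 7.81 and 7.91 in control spines. PGISp spine E was again high, spine C was only 0.20 above the highest control spine, and the control values spanned a narrow range. The means were 8.41 ± 0.34 in PGISp and 7.81 ± 0.08 in control spines (SD, n = 4 each), a difference of 0.60 (SE 0.14) or 1.52-fold (limma adjusted p = 0.0385). Without control spine F its adjusted p was 0.110, and without both control spines B and F it was 0.255. For each of the 7 probes an exact two-sided permutation test over the 8 arrays gave p = 0.0286, the smallest that 4 against 4 allow. The methods' t-test was run here with Benjamini-Hochberg adjustment at 0.1, in place of the permutation correction that the paper used. In it 4 of the 5 genes were called higher, where 2.68% of all genes were. Serpinb1a was the one not called.

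**Figure D2:**
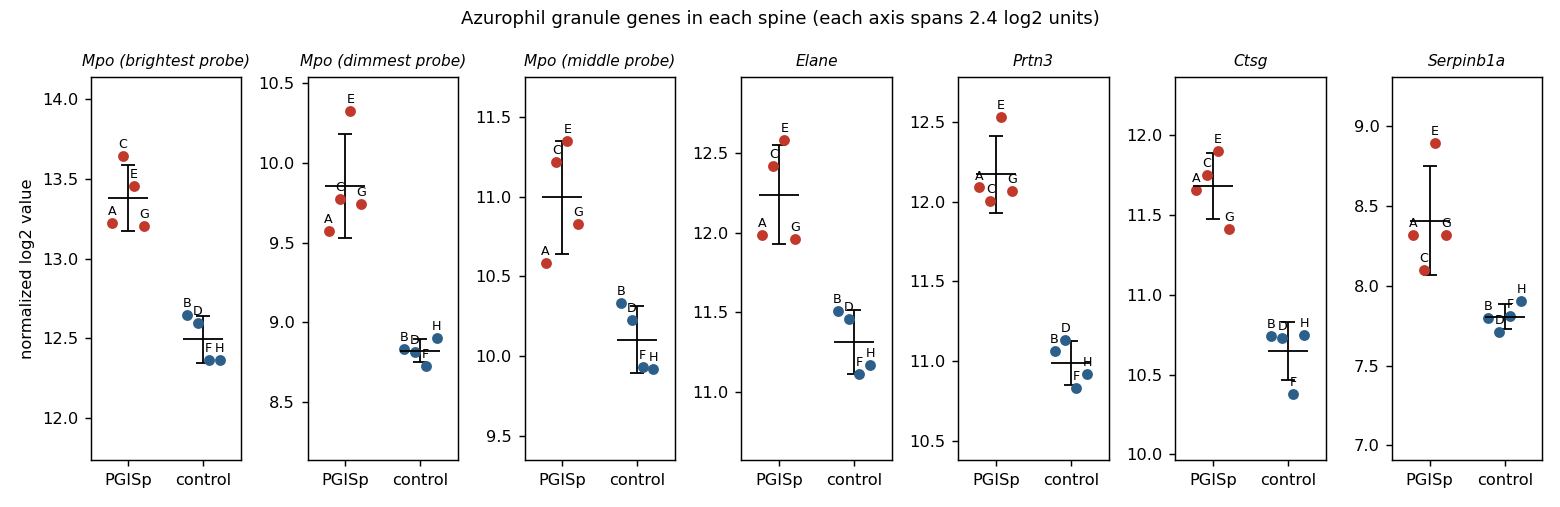
Log2 intensity of each of the 7 probes on the 8 arrays (points), with group means (lines); PGISp spines are on the left of each panel and control spines on the right. On every probe the lowest PGISp value is above the highest control value, with gaps between 0.20 (Serpinb1a) and 0.87 (Prtn3).

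The sizes of the 5 changes were compared pair by pair, 10 pairs in all, over the difference between the 2 genes within each array. The Prtn3 change exceeded the Serpinb1a change by 0.58 on the log2 scale (95% interval 0.31 to 0.86), with an exact permutation p = 0.0286 before and 0.286 after adjustment over the 10 pairs. Ctsg and Serpinb1a differed by 0.43 (95% interval 0.01 to 0.85, exact permutation p = 0.0571, adjusted 0.286). Mpo and Elane differed by -0.04 (95% interval -0.27 to 0.19, exact permutation p = 0.914 before adjustment). Between Mpo and Prtn3 the difference was -0.30 (95% interval -0.67 to 0.08). No pair passed after adjustment, and at 4 against 4 arrays 1 pair alone cannot reach an adjusted 0.05 among 10. The 95% intervals are each for 1 pair, unadjusted over the 10, and do not settle the order of the changes. Pairs with Mpo rest on its brightest probe.

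**Figure D3:**
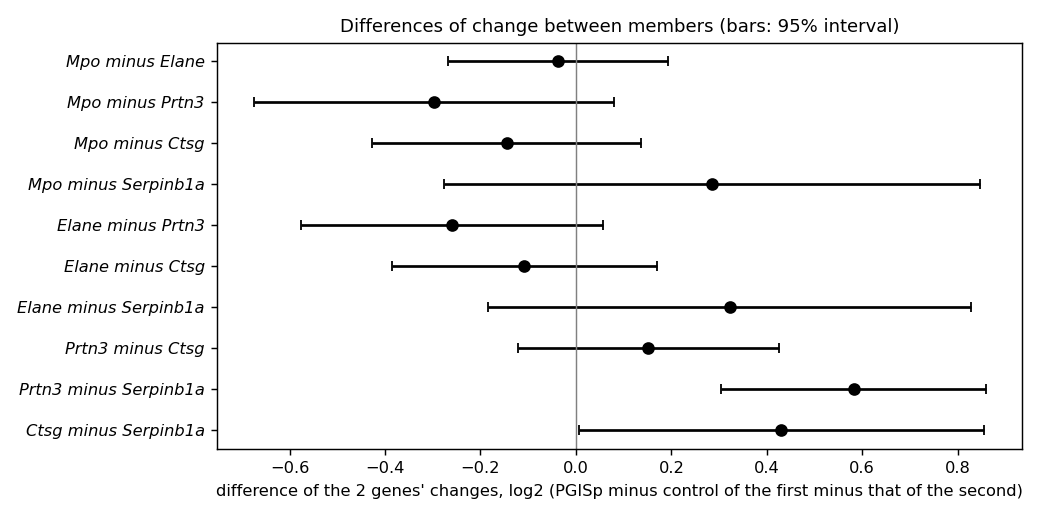
Difference between the changes of 2 genes (log2, first gene minus second) for the 10 pairs, with unadjusted 95% intervals. The interval of Prtn3 minus Serpinb1a runs from 0.31 to 0.86, and that of Mpo minus Elane from -0.27 to 0.19.

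Within the PGISp group the spines were not equally high. Averaged over the 5 genes, each relative to its own control mean, spine E stood at 1.22, C at 0.93, A at 0.80 and G at 0.74 (log2), while the control spines lay between -0.15 (F) and 0.10 (B). Spine E held the highest value for Elane, Prtn3, Ctsg and Serpinb1a; for Mpo spine C was highest on the brightest probe and spine E on the other 2 probes; for Prtn3 and Serpinb1a spine C was the lowest of the PGISp spines. After group means were removed, the correlation over the 8 arrays was 0.88 between Mpo and Elane, 0.79 between Elane and Ctsg and 0.76 between Prtn3 and Serpinb1a. It was 0.33 between Mpo and Prtn3 and -0.14 between Mpo and Serpinb1a. The Mpo correlations used its brightest probe alone and may differ on its other 2 probes, where spine E was highest. These are descriptions of 8 arrays that share 1 BeadChip and 1 normalisation.

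**Figure D4:**
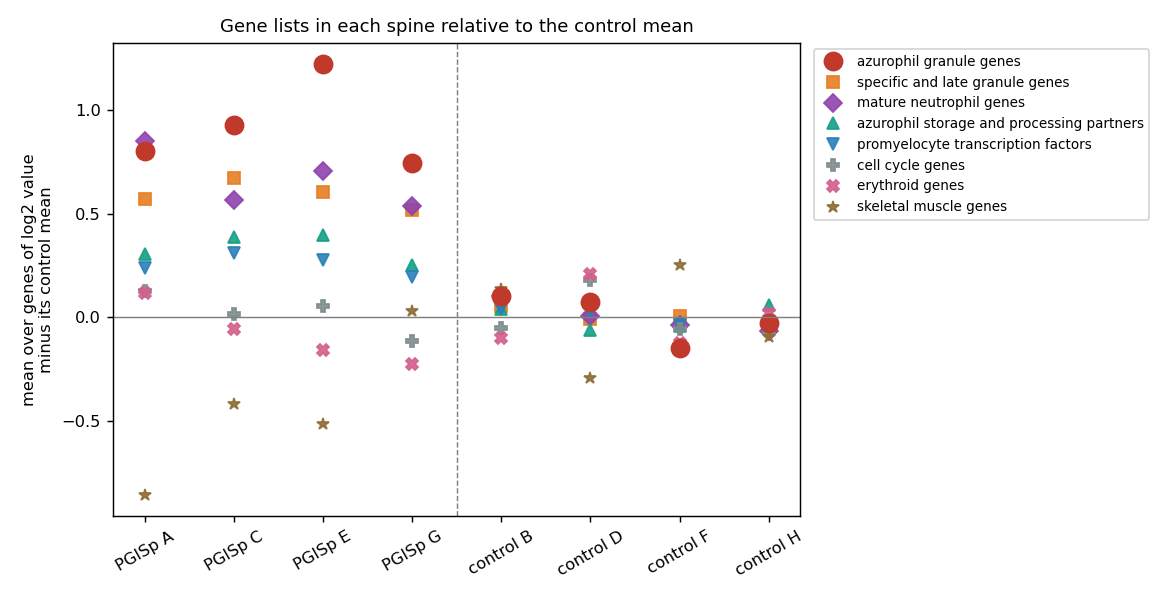
Mean over the 5 azurophil genes of the log2 value minus its control mean, for PGISp spines (left) and control spines (right). The same means are shown for the late granule, mature neutrophil, storage and processing, transcription factor, cell cycle, erythroid and skeletal muscle lists. The azurophil mean is between 0.74 and 1.22 in PGISp spines, highest in spine E, and between -0.15 and 0.10 in control spines.

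The genes nearest in pattern, by correlation over the 8 arrays with the mean of the 5 standardised genes, were Rac2, Nkg7, Ngp, Jdp2 and Dgka (r = 0.98 to 0.99), a measure that rests mostly on the difference between the groups. Rac2 encodes a GTPase of the neutrophil oxidase and cytoskeleton, and averaged 9.48 ± 0.19 in PGISp and 8.70 ± 0.09 in control spines (SD, n = 4 each, 1.71-fold, limma adjusted p = 0.00254). Ngp, neutrophilic granule protein, averaged 13.17 ± 0.15 in PGISp and 12.51 ± 0.03 in control spines (SD, n = 4 each, 1.58-fold, limma adjusted p = 0.00219). Once group means were removed the nearest genes were Grk6, Srm, Irx3, Hnrnpl and Prelid1 (r = 0.93 to 0.95), of which Srm, spermidine synthase, and Prelid1 were called higher, by 1.28-fold and 1.26-fold. The Srm call was lost without PGISp spine E (adjusted p = 0.105) or control spine F (0.125), and the Prelid1 call without PGISp spine C (0.137) or E (0.173) or control spine F (0.219) or H (0.169).

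Those genes beside the 5 on the chromosome that could be tested mostly were not called. Lpo, Plppr3, Gzme, Gzmd, Wrnip1 and Serpinb1c did not pass the filter on low signal, and Mks1, Cfd and Mylk4 were not on the array. Next to Ctsg lie the mast cell proteases Mcpt4 (difference 0.04, limma adjusted p = 0.722) and Mcpt8 (0.06, adjusted p = 0.615). Beside the Prtn3 and Elane pair, Med16, a Mediator subunit, differed by -0.05 (adjusted p = 0.811) and Ptbp1, a splicing regulator, by 0.30 (adjusted p = 0.188, and 0.0379 without PGISp spine G). Beside Serpinb1a, Serpinb6b differed by -0.08 (adjusted p = 0.464), and beside Mpo, Supt4a differed by 0.02 (adjusted p = 0.935). Mcpt4 and Serpinb6b read near background, above it on 3 and 5 of 8 arrays, so a change in them could have been missed. Tspoap1, the other neighbour of Mpo, was called higher with a difference of 0.28 (adjusted p = 0.0842), a call lost in 11 of the 18 alternative settings, among them those without any 1 of the spines A, B, C, E, F, G and H (adjusted p up to 0.211).

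Of 16 genes tested that are stored with these enzymes or process and sort them, 9 were called higher, 0 lower and 7 were not called, with a median difference of 0.37. The count of 9 depended on single arrays: it was 3 without control spine F, where 263 genes in all were called higher, and 5 without PGISp spine A or C or without control spine H. Genes in all called higher were 512 without A, 465 without C and 420 without H, against 601 with every array. Ms4a3, a membrane protein of granulocyte precursors, read 10.19, 10.08, 10.30 and 9.85 in PGISp spines, against 9.25, 9.04, 9.03 and 9.27 in control spines (1.94-fold, limma adjusted p = 0.00155). Lyz2, the lysozyme of myeloid cells, read 13.07, 13.05, 13.40 and 13.07 in PGISp spines, against 12.16, 12.11, 12.03 and 12.58 in control spines (1.90-fold, adjusted p = 0.00461). For both genes the groups did not overlap. As the mean over all its probes the Lyz2 difference was 0.55 on the log2 scale, against 0.92 on its brightest probe. Srgn, the proteoglycan core that packs granule proteases, was 1.49-fold higher (adjusted p = 0.0209), and the lysosomal enzymes Arsb, Man2b1, Hexa and Gusb were called with differences between 0.34 and 0.51. Genes not called included Calr, a chaperone of myeloperoxidase precursors (0.65, adjusted p = 0.156), G6pc3, Jagn1 and Hax1, whose human counterparts are mutated in congenital neutropenia, and the sorting adaptor subunits Ap3b1 and Ap3d1. Ctsc, the dipeptidase that activates the serine proteases, did not pass the filter on low signal and was not tested.

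Of 8 transcription factors of the promyelocyte stage 4 were called higher and 0 lower. Cebpe, which drives the switch from primary to secondary granules, read 9.33, 9.66, 9.70 and 9.19 in PGISp spines, against 8.88, 8.81, 8.55 and 8.82 in control spines (1.63-fold, limma adjusted p = 0.0119). Gfi1, a repressor needed for neutrophil development, read 8.41, 8.24, 8.31 and 7.95 in PGISp spines, against 7.60, 7.74, 7.66 and 7.47 in control spines (1.52-fold, adjusted p = 0.0096). Neither showed overlap between the groups. As the mean over all its probes the Cebpe difference was 0.52 on the log2 scale, against 0.70 on its brightest probe. Spi1, the gene of PU.1, differed by 0.29 (adjusted p = 0.020) and Irf8, a monocyte-lineage factor, by 0.29 with overlapping groups (adjusted p = 0.0499). The Irf8 call was lost without PGISp spine C (0.111) or E (0.113) or control spine F (0.1497) or H (0.107). Cebpa, which starts the granulocyte programme, differed by -0.00 (adjusted p = 0.987), Runx1 by 0.11 and Cbfb by 0.20, and none of them was called. Cebpa and Runx1 were themselves dim, as only 6 arrays for Cebpa and 5 for Runx1 exceeded background. Their missing calls therefore do not show that these 2 genes were unchanged. Myb was too dim to test.

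The other inhibitors of proteases had no common direction: of 10 tested 2 were called higher and 1 lower, with a median difference of -0.05. Slpi, the secretory leukocyte protease inhibitor, read 11.69, 11.53, 11.47 and 10.94 in PGISp spines, against 10.73, 10.65, 10.49 and 10.34 in control spines (1.81-fold, limma adjusted p = 0.0126). Timp1, an inhibitor of metalloproteinases, averaged 9.41 ± 0.77 in PGISp and 7.61 ± 0.06 in control spines (SD, n = 4 each, 3.48-fold, adjusted p = 0.0108). Serpina1b, an alpha-1-antitrypsin gene, averaged 8.04 ± 0.37 in PGISp and 8.87 ± 0.23 in control spines (SD, n = 4 each), a decrease of 0.82 on the log2 scale (adjusted p = 0.0271). The Serpina1b call was lost in the methods' t-test (adjusted p = 0.131) and without control spines B and F (0.271), and the difference was -0.58 as the mean over all its probes.

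Genes of later granulocyte stages moved in the same direction as the azurophil genes. Of 16 genes of specific and late granules 13 were called higher (median difference 0.67), among them Olfm4 (2.01-fold), Chil3 (1.90-fold) and Hp (1.77-fold), and Mmp8 and Itgam were not called. Of 14 genes of the mature neutrophil 12 were called higher (median 0.70), among them Stfa1 (2.89-fold), Clec4d (2.08-fold) and the chemokine receptor Cxcr2 (1.86-fold). S100a8 (0.05, limma adjusted p = 0.738) and S100a9 (0.15, adjusted p = 0.277) were not called. S100a8 reached the highest value in the table, 14.48, in both groups, so a rise in it could have been missed. The median of the 5 azurophil genes, 0.92, stands beside these medians; whether the stages differ in their change was not tested.

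Markers of other cell types are given for the same arrays. Of 7 mast cell and basophil genes 1 was called, Hdc, the histidine decarboxylase gene (2.09-fold, limma adjusted p = 6.58e-04), and the defining mast cell proteases Cma1 (6.72 to 6.78 in PGISp, 6.71 to 6.90 in control spines) and Mcpt4 (6.70 to 6.87 in PGISp, 6.70 to 6.81 in control spines) read at or near background, which lay between 6.73 and 6.80. Of the others, Tpsab1 averaged 6.78 in PGISp and 6.83 in control spines, while Cpa3 (7.55 in PGISp, 7.41 in control spines), Mcpt8 (7.26 in PGISp, 7.20 in control spines) and Fcer1a (7.24 in PGISp, 7.06 in control spines) were above background on 8 of 8 arrays and were not called. Called higher were 0 of 6 eosinophil genes, 1 of 9 monocyte and macrophage genes (Lgals3, 1.44-fold), 1 of 6 progenitor genes (Nkg7, 1.58-fold, which is also the gene of a cytotoxic granule protein), 0 of 7 B cell genes, 0 of 7 erythroid genes, 0 of 10 cell cycle genes and 0 of 4 cartilage genes, and none of these lists had a gene called lower. Over all genes tested 6.25% were called higher. At that share lists this short hold few or no called genes, so these counts do not show that the other cell types were unchanged. Of 9 osteoblast genes 4 were called higher (median 0.47), a count of 2 without PGISp spine A or E or without control spine B, F or H, and of 6 without PGISp spine G. The count over all genes moved too, from 601 called higher to 512 without A, 406 without E and 387 without B. It was 263 without F, 420 without H and 818 without G. Without PGISp spine A or G the count of monocyte and macrophage genes called higher was 2 or 3, and leaving out 1 array moved the counts of the eosinophil, erythroid and cartilage lists by at most 1.

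Of 14 skeletal muscle genes 2 were called lower, Mb and Des, and 0 higher, with a median difference of -0.45. Without PGISp spine G, whose omission brought the count over all genes to 746 called lower, 10 of the 14 were called lower (median -0.63); the Des call was lost without PGISp spine A or E or control spine B or F (adjusted p up to 0.139). The mean level over that list ranged between 11.73 and 12.62 on the PGISp arrays and between 12.30 and 12.84 on the control arrays. Control spines B and F also stood apart in Eif2s3y, a gene of the Y chromosome in a study whose methods describe female mice, at 8.57 and 8.33, against 6.92 and 6.63 in control spines D and H and 6.49 to 6.65 in the PGISp spines. The part of muscle content in the azurophil result was not tested. Without spines B and F the differences were 0.90 for Mpo, 0.92 for Elane, 1.14 for Prtn3, 0.94 for Ctsg and 0.60 for Serpinb1a, and 4 of the 5 genes kept their call. In that setting 1.28% of all genes were called higher and 0.416% lower, and the counts called higher were 2 of 16 storage and processing genes, 0 of 8 transcription factors, 2 of 5 oxidase and peroxidase genes, 10 of 16 late granule genes, 6 of 14 mature neutrophil genes, 1 of 9 osteoblast genes and 0 of 10 protease inhibitors, and 0 of 14 muscle genes were called lower.

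**Figure D5:**
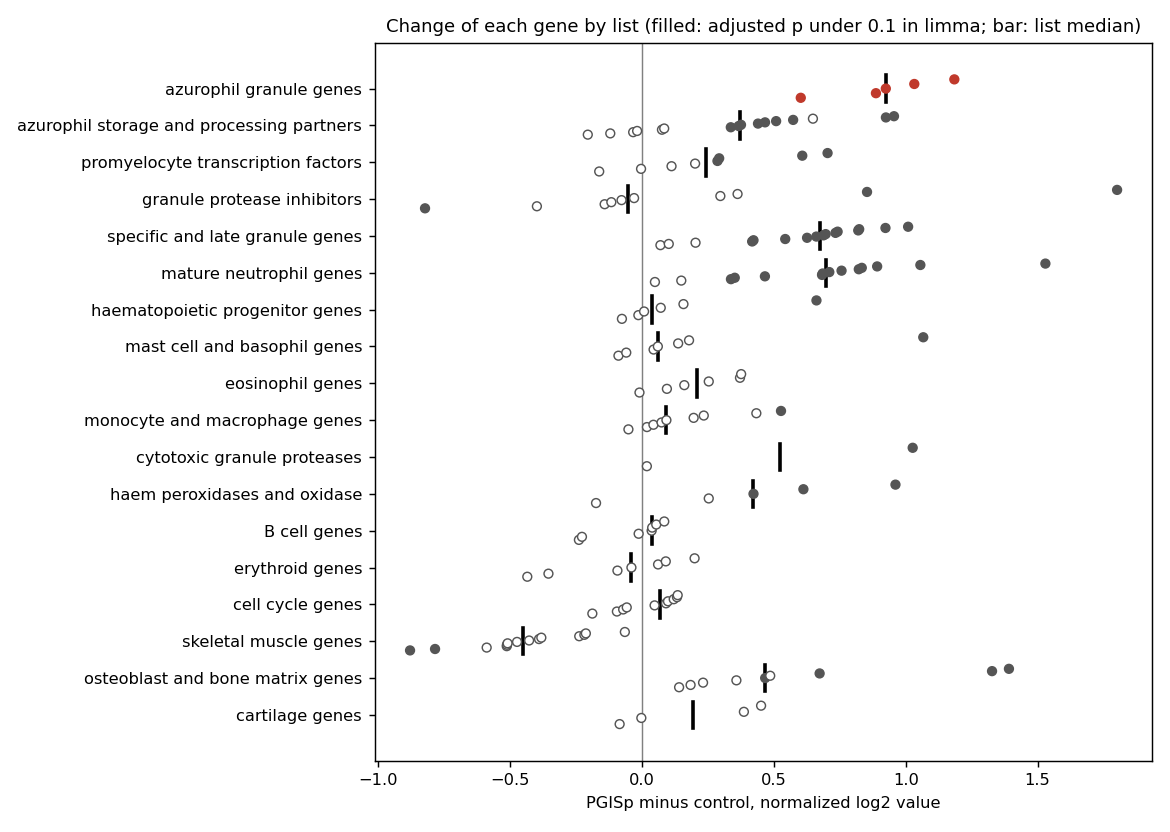
Differences between PGISp and control spines (log2) for the genes of each list, 1 point a gene, with the list median. The 5 azurophil genes lie between 0.60 and 1.18, and the medians of the late granule and mature neutrophil lists are 0.67 and 0.70.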

How the data were processed

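Total RNA of 8 spines was measured on Illumina MouseRef-8 arrays, 1 BeadChip of 8 arrays. The deposited log2 values were made by the authors, who read the arrays in BeadStudio (per the labels; GenomeStudio in the methods) and applied a variance-stabilising transformation and robust spline normalisation in lumi. A second table of signals and detection p-values had 16 columns that matched no sample label, and these were not used.

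Probes were named through the platform annotation, with symbols updated by gene ID (23960 probes), and 1719 of 25695 probes had no symbol. For the background of an array, the 95th percentile was taken over 1303 probes of odorant and pheromone receptors. Genes whose brightest probe averaged above the median of all probes were kept (9609, of which 714 are probes without a symbol, each counted as a gene) and compared in limma 3.58.1 (R 4.3.3), treatment being the only term, with Benjamini-Hochberg adjustment over all genes and a threshold of 0.1. Single values were compared by exact permutation tests (70 splits). Arrays correlated at 0.981 to 0.994 within and 0.972 to 0.990 between groups, and their number limits the precision. Nothing states the litter or cage of the mice. The p-values set the group difference against the spread between arrays and treat the mice as independent, which could not be checked.

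The 5 genes, the 17 gene lists and the tests were chosen with earlier results of these data known. The genes named were the 5, up to 3 called genes with the largest difference in each list (or 1 where none was called), the 5 genes nearest in pattern with and without group means, the tested neighbours and Eif2s3y; other list genes were named after their values had been seen. Promoter windows came from RefSeq (GRCm38.p6; 4 of 5 genes matched). Alternatives were other filters, probe choices, thresholds and tests, another normalisation, and leaving out each array.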

Additional observations from a re-analysis of the deposited data

Results flagged for a closer look

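In groups of 4 arrays, the gap of the highest or lowest value to its nearest neighbour was set against the whole range of the group, for 14 groups (7 probes in PGISp and in control spines); at the 95% critical value of Dixon's test chance flags about 1 in 20 such groups. PGISp spine E was far above the others for Prtn3, at 12.53 with the nearest at 12.09, a ratio of 0.838. Without that spine the Prtn3 difference was 1.06 on the log2 scale. Control spine F was far below the others for Ctsg, at 10.38 with the nearest at 10.73, a ratio of 0.947. Without it the Ctsg difference was 0.94.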

How the results depend on the processing

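Over 18 alternatives the difference stayed between 0.80 and 0.95 for Mpo, 0.81 and 1.02 for Elane, 1.06 and 1.24 for Prtn3, 0.94 and 1.12 for Ctsg and 0.44 and 0.70 for Serpinb1a, with no change of direction. Mpo, Elane, Prtn3 and Ctsg passed at 0.1 in all of them. Serpinb1a did not in the methods' t-test (adjusted p = 0.155), without control spine F (0.110) and without control spines B and F (0.255), the last an alternative added after the data had been seen; so 4 of the 5 genes were called in these and 5 in the others. Counts over all genes moved more. The methods' t-test called 258 genes higher and 153 lower, the fit without spines B and F 123 and 40, and an adjusted p under 0.05 363 and 214, against 601 and 438. The t-test counts rest on Benjamini-Hochberg adjustment and are not those of the paper's own permutation correction. With 1 array left out the counts ranged from 263 to 818 higher and from 142 to 746 lower; without control spine F they were 263 and 142, without control spine B 387 and 232, and the lower count was 283 without PGISp spine C, 224 without E and 746 without G. Of 49 other named genes 25 kept their side of the threshold in every alternative, 19 lost a call in at least 1, 5 gained one and 0 had a called direction reversed. The cause was not tested. Signal over background did not limit the 5 genes, whose 7 probes were above background on 8 of 8 arrays; Myb, Ctsc and other genes dim on these arrays were not tested.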

Other observations

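Genes of the phagocyte oxidase, which supplies the peroxide that myeloperoxidase uses, were also measured. Of 5 haem peroxidase and oxidase genes tested 3 were called higher and 0 lower, with a median difference of 0.42. Epx (0.25, limma adjusted p = 0.405) and Cat (-0.17, adjusted p = 0.572) were not called. Cybb, another gene of the oxidase, was above background on 0 of 8 arrays and was not tested. Ncf4, a cytosolic subunit of the oxidase, read 10.83, 10.72, 10.72 and 10.28 in PGISp spines, against 9.76, 9.70, 9.63 and 9.61 in control spines, with no overlap (1.95-fold, limma adjusted p = 0.00198). Ncf1 was 1.53-fold and Cyba 1.34-fold higher, the Cyba call being lost without control spine F (adjusted p = 0.109), while Lpo, the lactoperoxidase gene next to Mpo, was above background on 0 of 8 arrays. Of the cytotoxic granule genes 2 could be tested, and Prf1, perforin, was called higher (adjusted p = 0.0681) at 9.77, 8.77, 9.04 and 8.004 in PGISp spines, against 7.90, 7.98, 7.70 and 7.90 in control spines, a call that was lost in 9 alternatives, among them those without spine B, C, E, F or H (adjusted p up to 0.183); PGISp spine A was the highest for Prf1 and spine E for most azurophil genes.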
